A study of Mus musculus with 4 samples.

Results

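The genes described here encode 8 peptidases that sit in the plasma membrane with their active sites facing outward: Folh1, Mme, Dpp4, Anpep, Enpep, Fap, Ace and Ece1. They were taken as every probe set whose platform annotation gave a single one of these symbols. All 8 were present, through 15 of the 45037 probe sets tested, among 18193 genes on the array. The set was chosen by group differences already seen in the same comparison, in which Folh1 and Mme lay near opposite ends. The differences of the 8 genes between the groups are therefore a description, and no test is attached to them.

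Such ectopeptidases trim or inactivate small peptides at the cell surface, so the same peptide can act differently on tissues that carry different enzymes. Several are also surface antigens: Mme is CD10, Anpep is CD13 and Dpp4 is CD26. In lymph nodes and other organs they are carried by fibroblastic stroma, pericytes, endothelium and some leukocytes.

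The samples were stromal cells from the axillary nodes that drained subcutaneous tumours in female SCID/NOD mice of 6 to 8 weeks, an immunodeficient strain background without mature B and T lymphocytes. In the metastatic group the tumours were 293-VEGF-D cells, a human embryonic kidney line that overexpresses the lymphatic growth factor VEGF-D, and only visibly enlarged nodes were used. In the non-metastatic group they were 293-Apex cells without VEGF-D. Tumours had grown for 3 to 4 weeks and measured 1600 to 2500 mm3 when the nodes were collected. A preparation combined the nodes of 1 to 5 mice, and the digested cells were cultured briefly before magnetic selection for podoplanin. Each group had 2 preparations, called biological replicates in the titles, with 1 Affymetrix array each. By the sorting label, metastatic preparations were depleted of tumour cells and leukocytes before culture and non-metastatic ones were not, whereas the growth protocol, the same text for all samples, gives this depletion for both groups. Node enlargement, VEGF-D and metastasis, and depletion if the sorting label holds, cannot be told apart.

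The cells were described as enriched endothelium, and defining markers were read on the 4 arrays. The fibroblast markers Col1a1, a collagen chain, and Pdgfrb, a growth factor receptor of mesenchymal cells, had mean log2 signals of 13.74 and 12.27 over the 4 arrays. The endothelial adhesion genes Pecam1 and Cdh5 had 4.94 and 5.87, and the lymphatic transcription factor gene Prox1 had 4.00, all under the median of all probe sets (5.95). Other endothelial genes were above it, such as the VEGF receptor gene Kdr at 7.53, Emcn at 7.35 and the lymphatic gene Lyve1 at 6.65, and in all 5 of 10 pan-endothelial and 4 of 8 lymphatic markers reached it. The pan-leukocyte gene Ptprc had 4.13, while 4 of 13 leukocyte markers reached the median, among them Csf1r at 9.70 and Cd3e at 7.25. Values are log2 signals, in which 1 unit is a doubling, quantile normalized between arrays. They rank a probe set across arrays and not different genes against each other. No detection calls were used, so a dim signal is not evidence of absence. In these bulk preparations, fewer cells of a type and less RNA per cell cannot be told apart.

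Of the 45037 probe sets, 0 passed limma's moderated test with Benjamini-Hochberg adjustment at 0.05 (0.00%), and 2731 had an unadjusted p under 0.05. The 8 genes are thus set here against descriptive backgrounds. On the probe set with the highest mean for each gene, the groups did not overlap for 2 of the 8 genes, Folh1 and Mme, against 34.6% of all genes. Both also differed by at least 2-fold, against 0.874% of all genes, Folh1 downward as did 0.676% of all genes and Mme upward as did 0.198%. The choice of genes fixed that count, and nothing is read from it.

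Folh1 encodes glutamate carboxypeptidase II, also known as prostate-specific membrane antigen, a zinc enzyme that removes terminal glutamates from folates and from the neuropeptide N-acetylaspartylglutamate. It is known for its presence on the new vessels of many human tumours. Its log2 signal was 4.55 and 4.21 on the metastatic arrays and 6.80 and 8.23 on the non-metastatic arrays. Both metastatic arrays were dim, below the median of all probe sets, and both non-metastatic arrays were above it. The group means were 4.38 ± 0.24 and 7.52 ± 1.02 (SD, n = 2 each). The difference was -3.14 (SE 0.45), an 8.79-fold lower signal. This was the most negative of the 18193 genes. The non-metastatic arrays differed from each other by 1.44 log2 units, and leaving out non-metastatic replicate 2 or 1 gave -2.42 or -3.85. Only 1 probe set represents Folh1, so no other probe set of the gene was there to compare.

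The 300 bases around the Folh1 start, 250 before it and 50 after it (RefSeq, GRCm38.p6, chr7:86775815-86776114, minus strand), are shown because this gene had the largest difference. Here and in the other windows, capitals mark matches on either strand to the TATA box (TATAAA), the CCAAT box (CCAAT) and the GC box (GGGCGG), and none of the matches in the 3 windows shown overlapped.
Folh1: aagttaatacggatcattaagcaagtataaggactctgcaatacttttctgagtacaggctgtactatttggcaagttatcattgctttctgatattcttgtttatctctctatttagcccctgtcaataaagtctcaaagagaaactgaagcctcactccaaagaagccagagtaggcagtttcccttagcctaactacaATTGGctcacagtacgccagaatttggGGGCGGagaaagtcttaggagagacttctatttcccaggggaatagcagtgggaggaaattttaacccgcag
The window held 1 CCAAT box at bases 202 to 206 and 1 GC box at bases 229 to 234, counted from its 5′ end, and no TATAAA. Of 32851 windows of this length in the table, 37.4% held CCAAT, 35.7% GGGCGG and 13.6% TATAAA. It held 4 CpG dinucleotides, against a median of 7 over all windows. These are letters in a sequence and say nothing of which factors bind there.

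Mme encodes neprilysin, a zinc endopeptidase that degrades enkephalins, tachykinins, bradykinin and natriuretic peptides, and marks lymphoid progenitors and many stromal cells. Its brighter probe set read 8.60 and 5.92 on the metastatic arrays and 5.63 and 5.45 on the non-metastatic arrays. Metastatic replicate 1 stood apart, and metastatic replicate 2 was only 0.29 above the nearest non-metastatic array. The means were 7.26 ± 1.90 and 5.54 ± 0.13, a difference of 1.72 (SE 0.80). The other probe set of Mme showed the same order of groups, with 7.37 and 5.71 against 5.24 and 5.55 and a difference of 1.14 (SE 0.51). Most of the difference came from 1 array: without metastatic replicate 1 the brighter probe set differed by 0.38, and without metastatic replicate 2 by 3.09.

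Mme has 3 annotated starts on chromosome 3. The most upstream window (RefSeq, GRCm38.p6, chr3:63294961-63295260, plus strand) is shown as the counterpart of Folh1, since this gene lay at the other end of the differences.
Mme: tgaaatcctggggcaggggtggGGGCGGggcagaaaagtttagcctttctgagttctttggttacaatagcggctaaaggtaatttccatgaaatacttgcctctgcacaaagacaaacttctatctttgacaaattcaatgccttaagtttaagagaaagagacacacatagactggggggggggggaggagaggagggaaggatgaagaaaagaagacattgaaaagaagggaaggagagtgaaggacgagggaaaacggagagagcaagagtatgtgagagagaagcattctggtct
It held 1 GC box at bases 23 to 28, neither of the other motifs, and 4 CpG dinucleotides. The windows of the other 2 starts were different in composition, with 32 and 29 CpG dinucleotides and 2 GC boxes each. The array does not tell which start the Mme signal came from.

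Dpp4 encodes dipeptidyl peptidase 4, a serine peptidase that clips dipeptides from the N-terminus of chemokines such as Cxcl12 and of incretin hormones, and that marks a population of fibroblasts in several tissues. Its 4 probe sets disagreed. The one with the highest mean, 1438279_at, read 5.76 and 5.75 on the metastatic arrays and 5.94 and 5.67 on the non-metastatic arrays, a difference of -0.05 (SE 0.13), and the groups overlapped. A dimmer one, 1416697_at, is the only one of the 4 whose annotation cites a RefSeq transcript, while the other 3 cite expressed sequence tags. It read 6.22 and 5.82 against 4.88 and 4.53, with both metastatic arrays above both non-metastatic arrays. Its means were 6.02 ± 0.28 and 4.71 ± 0.25, a difference of 1.31 (SE 0.19) or 2.48-fold, and it stayed between 1.11 and 1.51 with any 1 array left out. A difference of at least 2-fold upward without overlap was seen in 0.151% of all probe sets. This probe set was singled out after its values were seen, so nothing is read from that share. The remaining probe sets differed by 0.37 (SE 0.13) for 1459973_x_at, whose suffix marks possible binding to other transcripts, and by 0.05 (SE 0.13) for 1441342_at. Both were dim, with mean signals of 3.65 and 4.51. The mean over the 4 probe sets differed by 0.42, so the value for Dpp4 depends on the probe set taken.

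The Dpp4 window (RefSeq, GRCm38.p6, chr2:62412182-62412481, minus strand) completes the 3 genes with a probe set that differed by at least 2-fold.
Dpp4: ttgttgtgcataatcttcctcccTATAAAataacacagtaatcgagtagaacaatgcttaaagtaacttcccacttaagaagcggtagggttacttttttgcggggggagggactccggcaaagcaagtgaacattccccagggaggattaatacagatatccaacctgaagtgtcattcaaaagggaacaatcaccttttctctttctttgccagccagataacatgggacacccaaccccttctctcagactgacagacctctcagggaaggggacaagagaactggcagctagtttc
It held 1 TATAAA at bases 24 to 29, far upstream of the start, neither of the other motifs, and 4 CpG dinucleotides. Among the other genes, the window of Anpep held 28 CpG dinucleotides and that of Enpep 7, with 2 TATAAA matches and 1 CCAAT. The 2 windows of Ace held 29 and 2, and the 4 windows of Ece1 held 28, 26, 21 and 5, so CpG content varied between the starts of a gene. Windows were found for 7 of the 8 genes, Fap being the other.

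**Figure D1:**
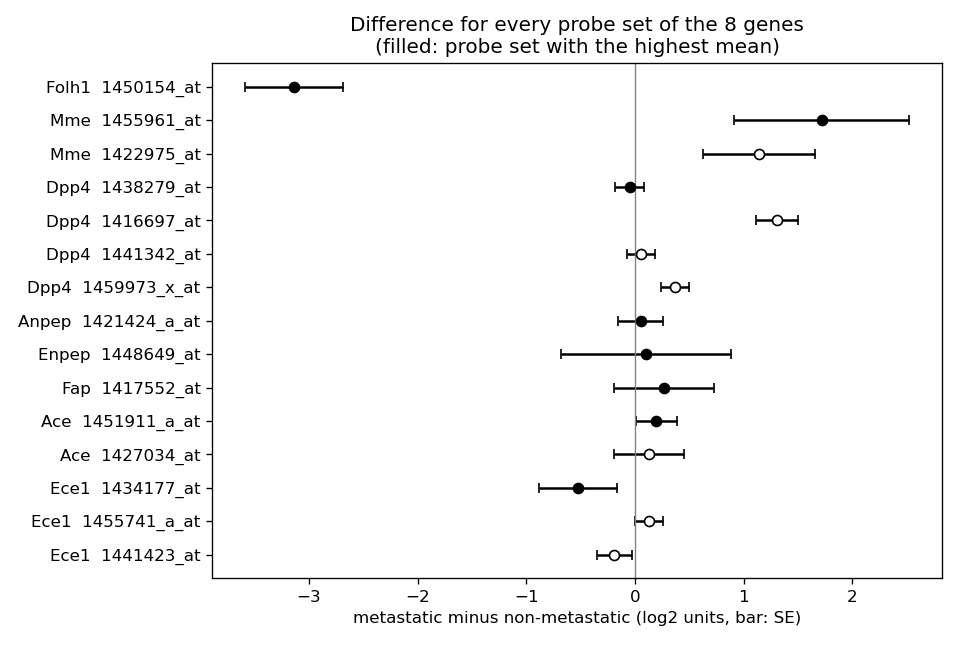
Difference between the metastatic and non-metastatic group means (log2 units, horizontal axis) with its limma SE for each of the 15 probe sets (vertical axis), filled for the probe set with the highest mean of its gene. Folh1 lies at -3.14, both probe sets of Mme lie above 1, and 1 of the 4 probe sets of Dpp4 lies at 1.31 while its brightest lies at -0.05.

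Fap, fibroblast activation protein, is the closest relative of Dpp4 and is known from activated fibroblasts and from the reticular cells of lymph nodes. It read 6.87 and 5.53 on the metastatic arrays and 6.29 and 5.57 on the non-metastatic arrays. The groups overlapped fully, and the difference of 0.27 (SE 0.46) was smaller than its error. It was -0.40 without metastatic replicate 1 and 0.94 without metastatic replicate 2.

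Anpep and Enpep encode aminopeptidases N and A, zinc enzymes found on pericytes and on other cells; the first takes neutral residues from peptide ends and the second converts angiotensin II to angiotensin III. Anpep read 7.16 and 6.58 against 6.88 and 6.76, a difference of 0.05 (SE 0.21). Its metastatic arrays lay on either side of the non-metastatic pair. Enpep read 7.04 and 4.49 against 5.95 and 5.38, and here too the metastatic arrays enclosed the others. The difference of Enpep was 0.10 (SE 0.78), which came from 2 widely separated arrays: it was -1.18 without metastatic replicate 1 and 1.39 without metastatic replicate 2. The sign for Anpep also turned, to -0.24 without metastatic replicate 1.

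Ace and Ece1 make vasoactive peptides: angiotensin-converting enzyme forms angiotensin II and degrades bradykinin, and endothelin-converting enzyme releases endothelin from its precursor. Both were bright. Ace read 9.89 and 9.43 against 9.32 and 9.60, a difference of 0.20 (SE 0.19), and its other probe set differed by 0.13 (SE 0.32). The groups overlapped, and without metastatic replicate 1 both values were negative, at -0.03 and -0.36. The brightest probe set of Ece1 read 10.88 and 9.71 against 10.87 and 10.76, so that metastatic replicate 2 alone was lower. Its difference was -0.52 (SE 0.36), and 0.06 without metastatic replicate 2. A second bright probe set of Ece1, 1455741_a_at, did not show this drop, with 9.75 and 9.90 against 9.60 and 9.79 and a difference of 0.13 (SE 0.13). The third, dimmer one differed by -0.19 (SE 0.16).

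**Figure D2:**
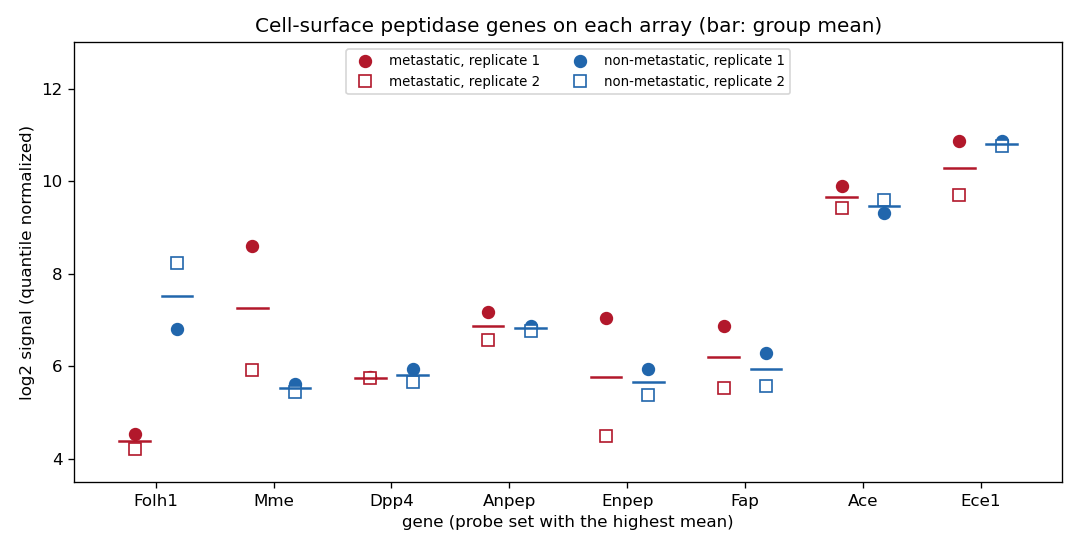
Log2 signal (vertical axis) of the 8 peptidase genes (horizontal axis) on each of the 4 arrays, for the probe set with the highest mean, with bars for the group means. The metastatic arrays of Folh1 sit at 4.55 and 4.21 under 6.80 and 8.23, and for Mme and Enpep the metastatic replicates lie 2.68 and 2.56 apart.

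For 6 of the 8 genes the replicates of the metastatic group lay further apart than the means of the 2 groups, Folh1 and Dpp4 being the others. All 8 genes read higher on metastatic replicate 1 than on metastatic replicate 2, with a median gap of 0.88 log2 units, where 47.0% of all genes did and the median gap was -0.02. For Dpp4 this order appeared only after quantile normalization, its deposited values being 5.69 and 5.79. The gaps were 2.68 for Mme, 2.56 for Enpep, 1.34 for Fap, 1.17 for Ece1, 0.59 for Anpep, 0.46 for Ace, 0.34 for Folh1 and 0.01 for Dpp4. Those of 4 genes were thus at least 1 unit, as were those of 1.76% of all genes. The genes were chosen by group differences that include these arrays, so these counts are a description. Probe sets of a gene did not always share the gap: 1416697_at of Dpp4 had 0.40, and 1455741_a_at of Ece1 had -0.15. Between the non-metastatic replicates 1 of the 8 genes, Folh1, was at least 1 unit apart, against 0.737% of all genes, and the median gap of the 8 was 0.15.

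**Figure D3:**
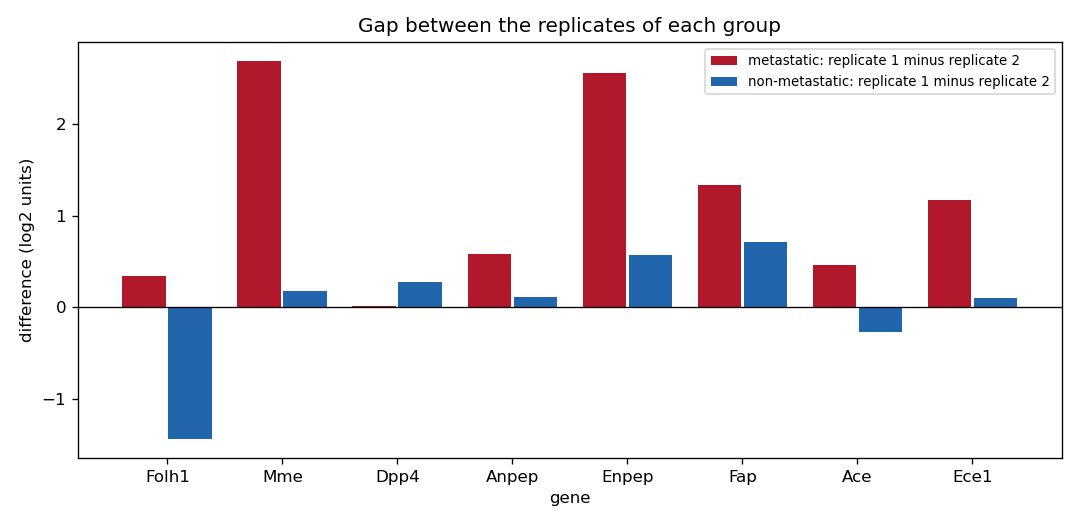
Replicate 1 minus replicate 2 (log2 units, vertical axis) within the metastatic and the non-metastatic group for each of the 8 genes (horizontal axis). In these quantile normalized values the metastatic bars reach 2.68 for Mme and 2.56 for Enpep and are all above 0. The longest non-metastatic bar, that of Folh1, is -1.44.

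The metastatic replicates were at least 2.5 units apart for 13 of the 18193 genes (0.0715%), against 0.0989% of genes for the non-metastatic replicates. Mme and Enpep were 2 of the 7 that were higher on metastatic replicate 1. The other 5, named after their values were seen, were the adipokine gene Adipoq (9.04 and 4.52), the ferritin receptor gene Scara5 (10.83 and 6.95), Akr1c14, the complement gene C1s1 and Vstm2a. The 6 higher on replicate 2 were the muscle actin gene Acta1 and Ankrd37, Ndufa4l2, Egln3, Slc16a3 and Ak4. Of these, Egln3, a prolyl hydroxylase that responds to low oxygen, had 6.03 and 9.26, and the lactate exporter gene Slc16a3 had 5.88 and 9.13. Between the non-metastatic replicates, Adipoq (8.40 and 5.66) and Acta1 (8.07 and 11.13) were also at least 2.5 units apart. The rest of the 13 were not. The part of these differences between preparations in the values of Mme and Enpep was not tested.

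Cell type markers were set beside this gap. Among fibroblastic reticular cell markers 6 of 10 were higher on metastatic replicate 1, with a median gap of 0.28, and their summed log2 signals were 106.25 to 110.55 in the metastatic and 110.33 to 111.73 in the non-metastatic group. Among leukocyte markers 9 of 13 were higher on that replicate, with a median gap of 0.26. Their sums were 71.69 to 73.56 and 73.77 to 73.81. Of the 13, 4 reached the median of all probe sets, where 11922 of 18193 genes did. Mural cell markers went the other way, with 3 of 10 higher on metastatic replicate 1 and a median gap of -0.18. Epithelial and mesothelial markers did so too, with 2 of 10 and -0.18. Lymphatic markers were higher on metastatic replicate 1 for 7 of 8, with a median gap of 0.28, pan-endothelial markers for 5 of 10 (0.14) and adventitial fibroblast markers for 4 of 7 (0.16). The part of cell composition in the peptidase values was not tested.

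The genes most like each peptidase over the 4 arrays were found by the distance between log2 profiles centred on their own mean, among 11922 genes (11921 for Mme) at or above the median signal. Nearest to Folh1 were Perp, a desmosome gene (distance 0.82), Scel, of the cornified envelope (0.94), and Ppp1r14a, an inhibitor of myosin phosphatase (1.03). Perp read 5.75 and 5.49 on the metastatic against 8.00 and 8.52 on the non-metastatic arrays. Nearest to Mme were Pparg, the adipogenic nuclear receptor (0.71), the metalloproteinase gene Adamts15 (0.81) and Rarres2, which encodes the adipokine chemerin (0.83). Pparg read 10.68 and 8.52 against 8.07 and 8.53, so that it too was high on metastatic replicate 1. For 1416697_at of Dpp4, a probe set picked after its values were seen, they were Rpl39l (0.25), Lrrn4cl (0.30) and the intestinal maltase gene Mgam (0.34). The flat profile of 1438279_at had N4bp1, Zfp667 and Gm29722 within 0.02. The distances rest on 4 arrays and are a description.

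Further peptidases, listed with earlier results of these data known, were read in the same fit. Of 19 further cell-surface peptidases 15 were measured, and 0 passed limma's adjusted threshold, with 1 at an unadjusted p under 0.05; 4 were higher and 1 lower without overlap, the median difference was 0.05 (-0.04 without metastatic replicate 1) and the largest in size was 0.39. That was Naalad2, a relative of Folh1 with a similar glutamate carboxypeptidase activity. It read 10.30 ± 0.09 against 10.69 ± 0.09, a difference of -0.39 (SE 0.12; limma adjusted p = 0.652). Naaladl1, another gene of that family, went the other way at 0.29 (SE 0.12), and Dpp6, an inactive relative of Dpp4, stood at 0.16 (SE 0.11). The soluble and intracellular peptidases were all measured, 13 of 13, and 0 passed, with 3 at an unadjusted p under 0.05 and a median of 0.09. Lap3, a leucine aminopeptidase, stood at -0.38 (SE 0.11), Nln, neurolysin, at 0.47 (SE 0.18) and Pepd, prolidase, at 0.32 (SE 0.12). The 7 genes of folate uptake and glutamylation, among them the folate receptor and the enzymes that add or remove the glutamates Folh1 acts on, had 6 measured members, 0 passed at either threshold, and the largest difference was -0.31 (SE 0.14) for Folr1.

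The peptides these enzymes act on and their receptors were then compared. Of 14 measured precursor genes 0 passed limma's adjusted threshold, 1 had an unadjusted p under 0.05, and 2 were higher and 3 lower without overlap (median 0.05). Edn1, whose product Ece1 processes, read 7.83 and 8.20 on the metastatic and 7.34 and 7.25 on the non-metastatic arrays, a difference of 0.71 (SE 0.15; limma adjusted p = 0.445). Both metastatic arrays were above both others. Penk, the enkephalin precursor, stood at -0.22 (SE 0.12) and Nppc, a natriuretic peptide, at -0.24 (SE 0.14). Of 19 measured receptor genes 0 passed and 2 had an unadjusted p under 0.05, with 1 higher and 5 lower without overlap (median -0.05). Calcrl, the receptor component for adrenomedullin, read 7.77 ± 0.08 against 8.36 ± 0.01, a difference of -0.59 (SE 0.11; limma adjusted p = 0.383). Agtr1b, an angiotensin II receptor, stood at -0.85 (SE 0.23); its near copy Agtr1a stood at 0.53, and the array may not separate the transcripts of these paralogs. Npr3, the clearance receptor for natriuretic peptides, stood at -0.38 (SE 0.18). Over all genes, 17.2% were higher and 17.3% lower without overlap, and 6.70% had an unadjusted p under 0.05.

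Markers of cell types that carry these peptidases differed unevenly between the groups, and none passed limma's adjusted threshold. Against 17.3% of all genes lower and 17.2% higher without overlap, mural cell markers had 7 of 10 lower and 0 higher. Their median was -0.46, with 5 at an unadjusted p under 0.05. Their summed log2 signals were 74.40 to 77.48 in the metastatic and 79.87 to 81.50 in the non-metastatic group. Myh11, smooth muscle myosin, stood at -0.61 (SE 0.11), the adhesion gene Mcam at -1.05 (SE 0.25) and Notch3 at -0.39 (SE 0.11). Rgs5, Abcc9 and Kcnj8 of the same list overlapped between the groups and stood at 0.03, 0.07 and 0.02. The part of mural cells in the lower signal of Folh1 was not tested. Counts without overlap are also given for the other lists, to be read beside the same shares of all genes. Fibroblastic reticular markers were lower for 3 of 10, with a median of -0.02 that became -0.25 when metastatic replicate 1 was left out and -0.11 when non-metastatic replicate 1 was. The list includes the lymphocyte survival factor Il7 at -0.81 (SE 0.18) and the chemokine Cxcl13 at -1.95 (SE 0.69), while Col3a1 stood at -0.21 (SE 0.14). Adventitial fibroblast markers were lower for 3 of 7, the 3 being Mfap5, Gsn and Anxa3 at -0.38, -0.30 and -0.20. The median of that list was -0.14 and turned to 0.14 without metastatic replicate 2.

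Pan-endothelial markers were higher for 1 and lower for 2 of 10. Their median of -0.03 became -0.30 without metastatic replicate 1 and turned to 0.06 without non-metastatic replicate 1. Emcn, the sialomucin endomucin, read 6.08 ± 0.59 against 8.61 ± 0.23, a difference of -2.53 (SE 0.29; limma adjusted p = 0.185). Cdh5 and Pecam1 stood at -0.70 (SE 0.36) and -0.34 (SE 0.18). Lymphatic markers were higher for 2 and lower for 1 of 8, and their median of -0.13 turned to 0.05 without non-metastatic replicate 1. Lyve1 read 6.32 and 4.23 against 8.26 and 7.80. Reln stood at 0.24 (SE 0.17), and Pdpn, whose protein was used for the selection, at 0.51 (SE 0.11). Leukocyte markers were higher for 2 and lower for 1 of 13, and their median of -0.06 turned to 0.06 without metastatic replicate 2. Csf1r stood at -0.54 (SE 0.16), Itgam at 0.28 (SE 0.14) and Cd3e at -0.23 (SE 0.16). Ptprc read 4.28 and 4.01 against 4.13 and 4.08, a difference of 0.04 (SE 0.13). Epithelial and mesothelial markers were higher for 1 and lower for 3 of 10 (median -0.05). Among them Wt1 stood at 1.00 (SE 0.24), Msln, mesothelin, at -1.44 (SE 0.65) and Krt14 at -0.37 (SE 0.20). Msln was highest on non-metastatic replicate 2, at 8.48 against 6.47, 6.44 and 5.62 elsewhere. Wt1 was lowest on that array, at 4.89 against 5.44, 5.93 and 6.40.

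**Figure D4:**
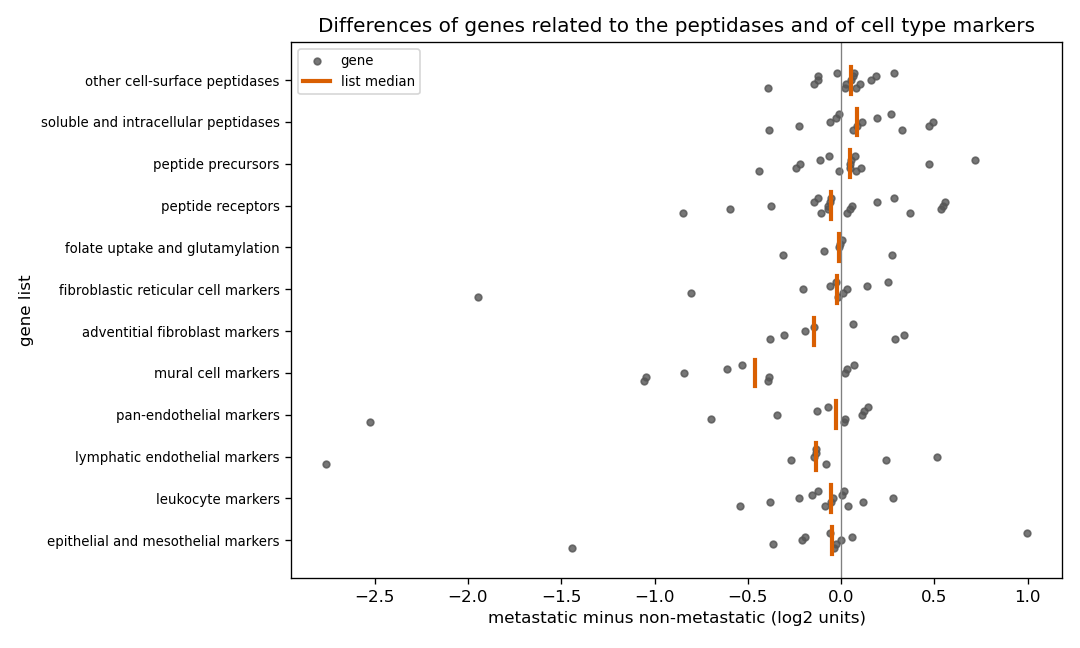
Difference between the metastatic and non-metastatic group means (log2 units, horizontal axis) for every measured gene of 12 lists (vertical axis), with a bar at each list's median. The further peptidases stay within 0.39 of 0 on the cell surface and 0.49 elsewhere, the mural list has the lowest median, -0.46, and Emcn and Lyve1 lie at -2.53 and -2.76.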

How the data were processed

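Expression was measured on 4 Affymetrix arrays, 2 per group, grouped by sample title. The authors deposited log2 signals per probe set (3.10 to 14.87, read from the values); how probes were summarised and normalized is not given in the sources used here. Array medians differed by 0.116, above a limit of 0.1 log2 units, so the arrays were quantile normalized. Of 45101 probe sets, 64 controls were left out, and none was filtered for low signal. The annotation gave 34945 probe sets 1 symbol, 932 several and 9160 none, and symbols were updated through Entrez numbers for 34741. The brightest probe set, by mean over the 4 arrays, stands for a gene.

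limma 3.58.1 in R 4.3.3 (lmFit, eBayes; 2 residual and 3.71 prior degrees of freedom) was fitted as metastatic minus non-metastatic, two-sided, with Benjamini-Hochberg adjustment over all 45037 probe sets. The scripts were tested on simulated data. The number of arrays limits the precision.

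The peptidases and lists were chosen with earlier results of these data known. Of 147 entries in 12 lists, 135 were measured. Named genes are the 8 members, up to 3 of each list by smallest p, fixed defining markers, and the 3 nearest profiles of Folh1, Mme and Dpp4; others are marked or serve a stated comparison. Planned protein comparisons were not made, as no protein table was used. Alternatives were the deposited values, median centring, trended robust moderation, brighter probe sets only, the replicate number as a block, averaging over a gene's probe sets, and each array left out. Promoter windows and plots used Python 3.11.15 and matplotlib 3.10.9.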

Additional observations from a re-analysis of the deposited data

How the results depend on the processing

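The count of 0 called probe sets (limma) became 5 with an intensity trend and robust moderation, 145 with the replicate number as a block, and 0 to 65 with 1 array left out, the 65 without metastatic replicate 1. It stayed 0 with deposited values, median centring or brighter probe sets only. The block called 4 members of the related lists (Cnn1, Mcam, Emcn and Lyve1), and 0 to 3 were called with 1 array left out, the 3 (Cxcl13, Emcn and Lyve1) again without metastatic replicate 1. The labels do not state that replicate numbers pair the samples, and the deviations of same-numbered arrays correlated at 0.25 over probe sets, with only 2 pairs. With deposited values, median centring, the replicate block or averaging over probe sets, 2 of the 8 peptidase genes were at least 2-fold apart without overlap. This count was not made with trended robust moderation or with brighter probe sets only, and the latter left out Folh1. The share over all genes in the main fit was 0.874%. With 1 array left out, the genes that differed by that much changed. Without metastatic replicate 1, Mme fell to 0.38, while Enpep and the brightest probe set of Ece1 stood at -1.18 and -1.11. Without metastatic replicate 2, Enpep stood at 1.39. Apart from leaving out arrays, 1 peptidase value moved by more than the replicate SD, that of Dpp4, to 0.42 with the mean of its probe sets. The cause of these changes was not tested. With 1 array left out, the spread comes from the other group alone, which the lone array is assumed to share. Dim signals, such as Folh1 on the metastatic arrays, may compress differences.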
